A study of Bos taurus with 20 samples.

Results

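Genes that mark T cell subsets or direct their formation were examined in the blood of pregnant recipient cows. They were taken as a list of symbols, *CD4*, *CD8A*, *CD8B*, *TBX21*, *GATA3*, *BCL6*, *EOMES*, *TCF7* and *LEF1*, and each symbol matched 1 of the 37063 Entrez identifiers in the count files. The list holds 9 genes, and all 9 were among the 16206 genes with enough counts to be tested. Whole blood had been drawn at day 63 of gestation from 20 cows, each carrying a female beef fetus grown from an in vitro-produced embryo fertilized with X-sorted semen. Every cow was in this same state, with no untreated or non-pregnant group. Cows were therefore compared here along calf birth weight (BW), which is not the only way in which they differed. The paper lists the recipients with a range of ages and names dam parity among the variables of its calving model. Neither age nor parity entered any fit here, and their part in the levels was not tested. The methods of the study describe the recipients as lactating dairy cows whereas a summary of its data sets lists them as Angus, and their breed is therefore not used here. BW was 45.0 ± 10.1 kg (SD, n = 20), from 30 to 56 kg in 19 calves and 72.5 kg in the last. Blood had been drawn into tubes that stabilise RNA, so the values come from whole blood with every cell type in it.

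T cells recognise antigen through their receptor and divide into lineages with different tasks. Helper T cells carry the co-receptor CD4, which binds MHC class II, and instruct other immune cells, whereas cytotoxic T cells carry CD8, a dimer of the CD8A and CD8B chains that binds MHC class I. Master regulators are transcription factors that set a subset's programme. T-bet (*TBX21*) drives T helper 1 and cytotoxic cells, GATA3 drives T helper 2 cells and early T cell development, BCL6 drives follicular helper cells, EOMES acts in cytotoxic and memory cells, and TCF7 and LEF1, a pair of related HMG-box factors, keep T cells naive or memory-like. Several of these genes also work outside T cells, *TBX21* and *EOMES* in natural killer cells and *BCL6* in B cells and myeloid cells. Cattle also have many circulating gamma delta T cells, a large share of which carry scavenger receptors of the WC1 family and lack CD4. The question set by the design was whether the balance of these genes differed with the weight of the calf.

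The libraries held 24632077 to 39892111 counted reads (median 33412740). Levels are given as CPM, the count scaled to a common library total after trimmed-mean (TMM) scaling between libraries. Counts are not corrected for transcript length, so levels are compared between cows and not between genes. Pan-T cell markers were present in every cow, with all 11 of the listed genes (among them *CD3D*, *CD3E*, *CD3G*, *CD5*, *CD6*, *TRAT1*, *BCL11B*, *THEMIS*, *UBASH3A* and *CAMK4*) tested and none called for BW. Their summed level was between 811 and 1305 CPM. Other cell types were in the same libraries, with summed levels between 942 and 1695 CPM for 8 B cell markers, 394 and 563 CPM for 7 natural killer cell markers, 1856 and 3999 CPM for 7 monocyte markers, and 2861 and 5244 CPM for 9 neutrophil markers. Platelet markers summed to between 456 and 1425 CPM and erythroid markers to between 4.33 and 31.8 CPM. In whole blood, fewer cells of a type and less RNA per cell cannot be told apart.

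*CD4*, the co-receptor of helper T cells, had a narrower range over cows than the CD8 genes, but it was more variable than most genes of like abundance. Its lowest level was 134 CPM (the cow of the 46 kg calf), its median 167 CPM and its highest 211 CPM (the cow of the 35 kg calf). The highest cow therefore had 1.58 times the level of the lowest, and the coefficient of variation over 20 cows was 10.9%. Among all 16269 genes compared over 20 cows, 33.8% had a smaller spread on the log2 scale, and among the 1000 genes nearest to *CD4* in abundance 72.4% did.

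*CD8A* and *CD8B*, the chains of the cytotoxic co-receptor, varied far more. *CD8A* had a lowest level of 25.6 CPM in the cow of the 30 kg calf, a median of 44.0 CPM and a highest level of 79.2 CPM in the cow of the 32 kg calf. *CD8B* had its lowest level, 11.9 CPM, and its highest, 35.5 CPM, in the same cows, around a median of 17.4 CPM. The highest cow stood 3.09 times above the lowest for *CD8A* and 2.98 times for *CD8B*, with coefficients of variation of 28.7% and 29.5%. Of the 1000 genes of like abundance, 97.1% had a smaller spread than *CD8A* and 92.1% a smaller spread than *CD8B*. The cow of the 32 kg calf stood apart, since the next highest levels were 65.3 CPM for *CD8A* and 27.2 CPM for *CD8B*, both in the cow of the 46 kg calf. The cows with the lowest and the highest *CD8A* carried the 2 lightest calves.

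The regulators of effector cells differed in how widely they ranged. *TBX21* had a lowest level of 96.7 CPM (the cow of the 35 kg calf), a median of 143 CPM and a highest level of 175 CPM (the cow of the 46 kg calf). These are the same cows as the extremes of *CD4*, in the opposite order. *EOMES*, the least counted of the 9 genes with 209 to 791 reads per cow, had a lowest level of 5.87 CPM (43 kg), a median of 10.7 CPM and a highest level of 23.2 CPM (47.4 kg). The second highest cow had 14.3 CPM, so the cow of the 47.4 kg calf stood alone. *GATA3*, the T helper 2 regulator, had a lowest level of 27.5 CPM (36 kg), a median of 31.8 CPM and a highest of 44.2 CPM (47.4 kg), and here the second highest cow was close, at 44.1 CPM.

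*BCL6* had a lowest level of 142 CPM in the cow of the 56 kg calf, a median of 227 CPM and a highest level of 314 CPM in the cow of the 50 kg calf. It was more variable than 94.0% of the 1000 genes of like abundance. Of the factors of naive and memory cells, *TCF7* was the steadier. *TCF7* ranged from 285 CPM (36 kg) through a median of 323 CPM to 363 CPM (35 kg), a ratio of 1.27 between the highest and lowest cow. Its coefficient of variation was 6.26%, the smallest of the 9 genes, and 7.92% of all genes had a smaller spread on the log2 scale. *LEF1* ranged from 294 CPM (50 kg) through a median of 343 CPM to 462 CPM (35 kg), and its coefficient of variation, 10.9%, was close to that of *CD4*. Of the 1000 genes of like abundance, 29.1% had a smaller spread than *TCF7* and 69.5% a smaller spread than *LEF1*. The cow of the 35 kg calf thus had the highest *CD4*, *TCF7* and *LEF1* and the lowest *TBX21*. Its summed T cell markers, 1023 CPM, were in rank 14 of 20 counted from the lowest, and its library of 29418074 counts was in rank 6.

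**Figure D1:**
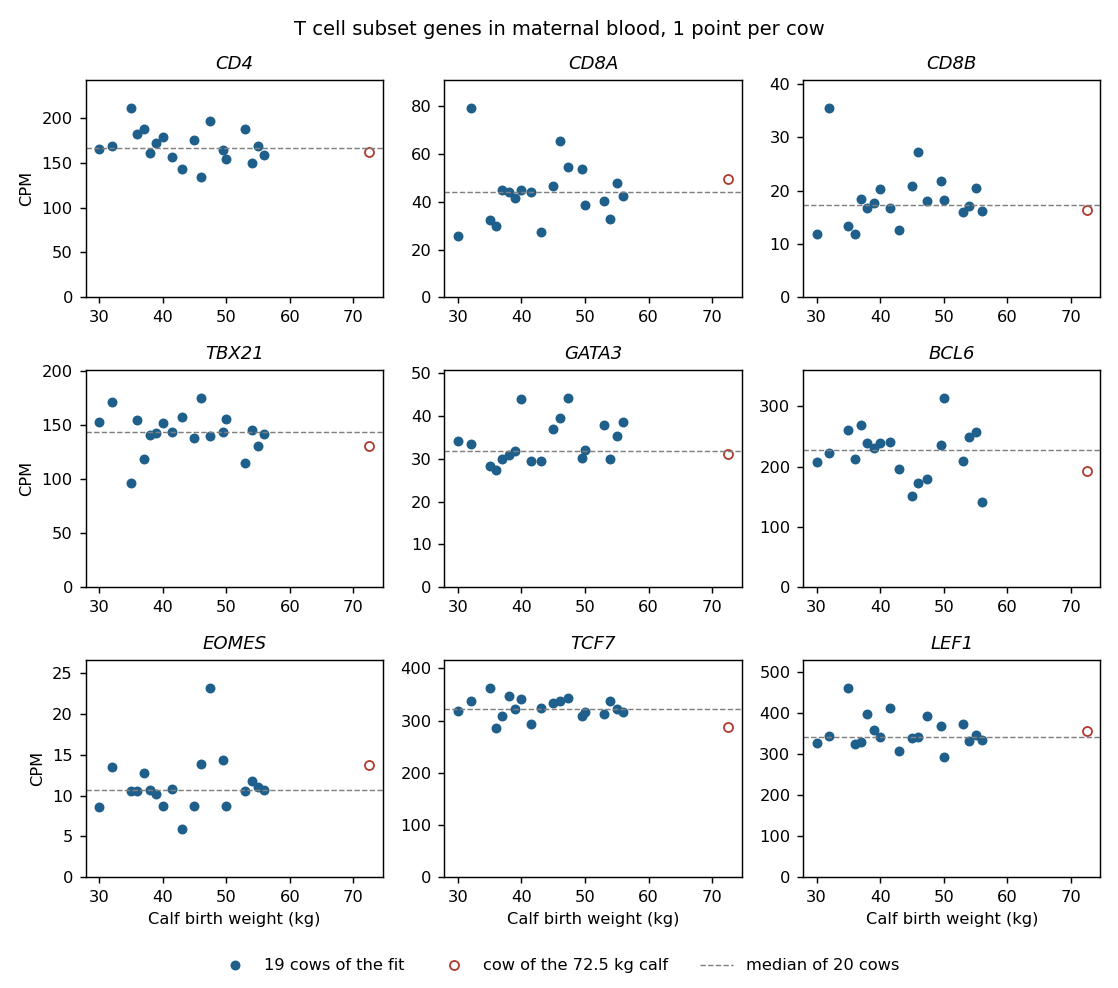
Level of each gene (CPM, vertical axis from 0) against calf birth weight (kg) in 20 cows, 1 point per cow, with the median of 20 cows as a dashed line; the open point is the cow of the 72.5 kg calf, which was not in the fit. *CD8A* and *CD8B* peak together at the 32 kg calf, *EOMES* has 1 high cow at 47.4 kg, and *TCF7* stays between 285 and 363 CPM.

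The association with calf BW was tested for every gene in the 19 cows without the 72.5 kg calf, with edgeR's quasi-likelihood test and Benjamini-Hochberg adjustment over 16206 genes. Of the 9 genes, 0 had an FDR below 0.05, where 0% of all genes did, and 0 had an unadjusted p below 0.05, where 13.9% of all genes did. With DESeq2 0 of the 9 had an FDR below 0.05, against 1.24% of the 15287 genes given an adjusted p, and with limma-voom the count was also 0. A negative slope was found for 6 of the 9 genes, where 53.4% of all genes had one, and the median slope of the 9 was -0.0014 (log2 per kg) against -0.00072 for all genes.

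The intervals around these slopes show which sizes of difference the 19 cows leave possible. They are given as the slope in percent of the level per 10 kg of BW. *TCF7* had the tightest, with a slope of -0.984% (95% interval -4.65% to 2.82%, edgeR FDR of 0.859). *LEF1*, its relative, had -2.72% (95% interval -8.87% to 3.84%, edgeR FDR of 0.751). For *CD4* the slope was -3.93% (95% interval -9.98% to 2.53%, edgeR FDR of 0.614). For these 3 genes no interval reached beyond -9.98% on the lower or 3.84% on the upper side.

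The cytotoxic co-receptor was less closely bounded. *CD8A* had 0.585% per 10 kg (95% interval -14.8% to 18.8%, edgeR FDR of 0.984) and *CD8B* had -0.520% (95% interval -15.3% to 16.8%, edgeR FDR of 0.985). The cow of the 32 kg calf weighed on both genes. Without it the slopes were 0.018 per kg for *CD8A* (p = 0.101) and 0.018 for *CD8B* (p = 0.0595) on the log2 scale, with an edgeR FDR of 0.43 and 0.35, and without the cow of the 30 kg calf they were -0.0075 and -0.0079. The direction of either slope is thus not settled by these cows.

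Among the regulators, *GATA3* had the lowest p of the 9 genes in the edgeR test, 0.186, with a slope of 5.54% per 10 kg (95% interval -2.78% to 14.6%, FDR of 0.585). Its slope was positive in each of the 19 fits that left out 1 cow, and *CD4*, *TBX21*, *EOMES*, *TCF7* and *LEF1* also kept their sign. With all 20 cows the slope of *GATA3* went from 0.0078 to 0.0034 per kg on the log2 scale (edgeR p = 0.464). For *TBX21* the slope was -2.12% (95% interval -9.62% to 6.01%, edgeR FDR of 0.856). *EOMES* had 5.24% (95% interval -10.9% to 24.4%, edgeR FDR of 0.83). *BCL6* had -3.28% (95% interval -13.8% to 8.50%, edgeR FDR of 0.839), and its slope turned positive, to 0.0015 per kg, without the cow of the 56 kg calf, which had its lowest level. Several slopes came close to 0 when 1 cow was dropped, that of *EOMES* going from 0.0074 to 0.0019 per kg (47.4 kg calf), *TBX21* from -0.0031 to -5.4e-05 (32 kg calf), *TCF7* from -0.0014 to -0.00010 (35 kg calf) and *LEF1* from -0.0040 to -0.00051 (35 kg calf). None of the 9 genes reached an unadjusted p below 0.05 in any of the 19 fits without 1 cow.

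**Figure D2:**
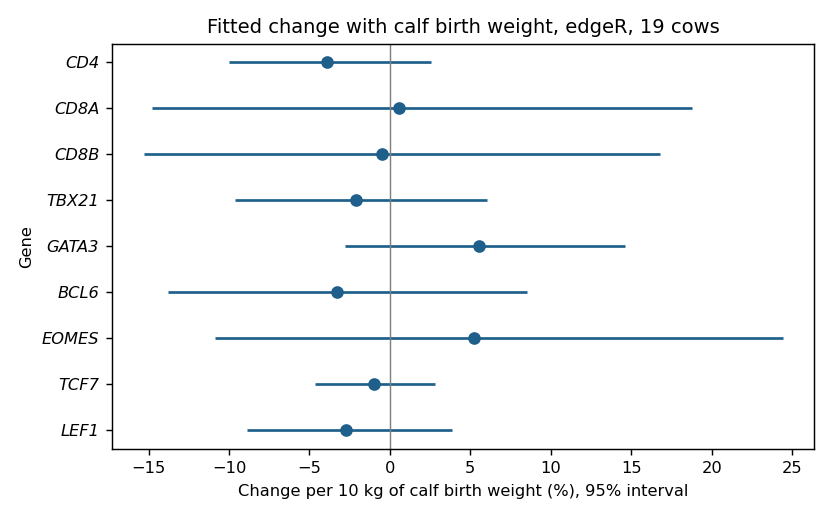
Fitted change in level per 10 kg of calf birth weight (%, horizontal axis) for each gene, from edgeR in 19 cows; points are estimates and lines are 95% intervals. Every line crosses 0, and the line is shortest for *TCF7* and longest for *EOMES*.

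Balance between the genes was measured as the ratio of the counts of 2 of them within a library, which does not depend on how libraries are scaled against each other. A ratio of counts is not a ratio of cells, since transcripts differ in length and in number per cell, and only its variation between cows is read here. Reads of *TBX21*, *EOMES*, *BCL6*, *CD8A* and *CD8B* may also come from cells other than T cells. Ratios with these genes are therefore not shown to be balances of T cell subsets. Over the 20 cows, *CD8A* and *CD8B* had Pearson correlations of 0.59 and 0.66 with the mean z-score of the natural killer cell markers. The cells from which the CD8 reads came were not tested. Each of 8 ratios was compared with BW over all 20 cows. By Pearson and by Spearman correlation, 0 of the 8 had an adjusted p below 0.05 and 0 an unadjusted p below 0.05.

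The *CD4* to *CD8A* ratio, of helper against cytotoxic co-receptor, was lowest in the cow of the 46 kg calf, at 2.05, and highest in the cow of the 35 kg calf, at 6.48, with a median of 3.87. The correlation with BW was -0.25 (permutation p = 0.279, adjusted over 8 ratios 0.626) by Pearson and -0.37 (permutation p = 0.105, adjusted 0.669) by Spearman. Its slope was -7.34% per 10 kg (95% interval -19.8% to 7.05%). Without the 2 cows farthest from the median BW the Pearson correlation was -0.065, and without the cow of the 32 kg calf it was -0.47 (permutation p = 0.0437, adjusted over 8 ratios 0.35). The 4 cows with ratios above 5 carried calves of 30, 35, 36 and 43 kg, but the cow of the 32 kg calf had a ratio of 2.13, so light calves lay at both ends of the range. The *CD4* to *CD8B* ratio ranged from 4.74 to 15.8 around a median of 9.63, with a Pearson correlation of -0.13 (permutation p = 0.569, adjusted 0.82) and a Spearman correlation of -0.27 (permutation p = 0.249, adjusted 0.669).

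The 2 chains of CD8 kept a much steadier proportion to each other than to *CD4*. The *CD8A* to *CD8B* ratio was between 1.91 and 3.03, a spread of 1.59 times, whereas the *CD4* to *CD8A* ratio spread 3.17 times. Its correlation with BW was 0.32 (permutation p = 0.163, adjusted 0.626) by Pearson and 0.16 (permutation p = 0.496, adjusted 0.794) by Spearman. This value rests on the cow of the 72.5 kg calf, whose ratio was 3.01, since the Pearson correlation was 0.033 in the other 19 cows. It also moved to 0.49 (permutation p = 0.0331, adjusted over 8 ratios 0.265) when the cow of the 54 kg calf was dropped, whose ratio was the lowest.

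Ratios between regulators gave no call either. *TBX21* to *GATA3*, the T helper 1 against the T helper 2 regulator, ranged from 3.02 to 5.62 with a slope of -4.13% per 10 kg (95% interval -11.9% to 4.35%), with a Pearson correlation of -0.24 (permutation p = 0.313, adjusted 0.626) and a Spearman correlation of -0.27 (permutation p = 0.251, adjusted 0.669). *TBX21* to *EOMES*, a pair of T-box factors of cytotoxic cells, had the widest range, from 6.003 in the cow of the 47.4 kg calf to 26.7 in that of the 43 kg calf, or 4.45 times. Its Pearson correlation with BW was -0.25 (permutation p = 0.283, adjusted 0.626) and its Spearman correlation -0.20 (permutation p = 0.404, adjusted 0.794). *TCF7* to *LEF1* had the narrowest, from 0.712 to 1.075, with a Pearson correlation of -0.086 (permutation p = 0.718, adjusted 0.82), a Spearman correlation of 0.029 (permutation p = 0.906, adjusted 0.906) and a slope of -0.891% per 10 kg (95% interval -5.82% to 4.30%). The ratio of *LEF1* to *TBX21*, a factor of naive and memory cells against one of effector cells, ranged from 1.89 to 4.77. It was again highest where the calf weighed 35 kg. It had a Pearson correlation of 0.035 (permutation p = 0.881, adjusted 0.881) and a Spearman correlation of 0.062 (permutation p = 0.799, adjusted 0.906). *BCL6* to *TBX21* ranged from 0.988 to 2.698 and gave -0.10 (permutation p = 0.672, adjusted 0.82) by Pearson and -0.044 (permutation p = 0.856, adjusted 0.906) by Spearman. Leaving out the 2 cows farthest from the median BW put the Pearson correlations of the 8 ratios between -0.30 (*TBX21* to *GATA3*) and 0.19 (*TCF7* to *LEF1*).

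**Figure D3:**
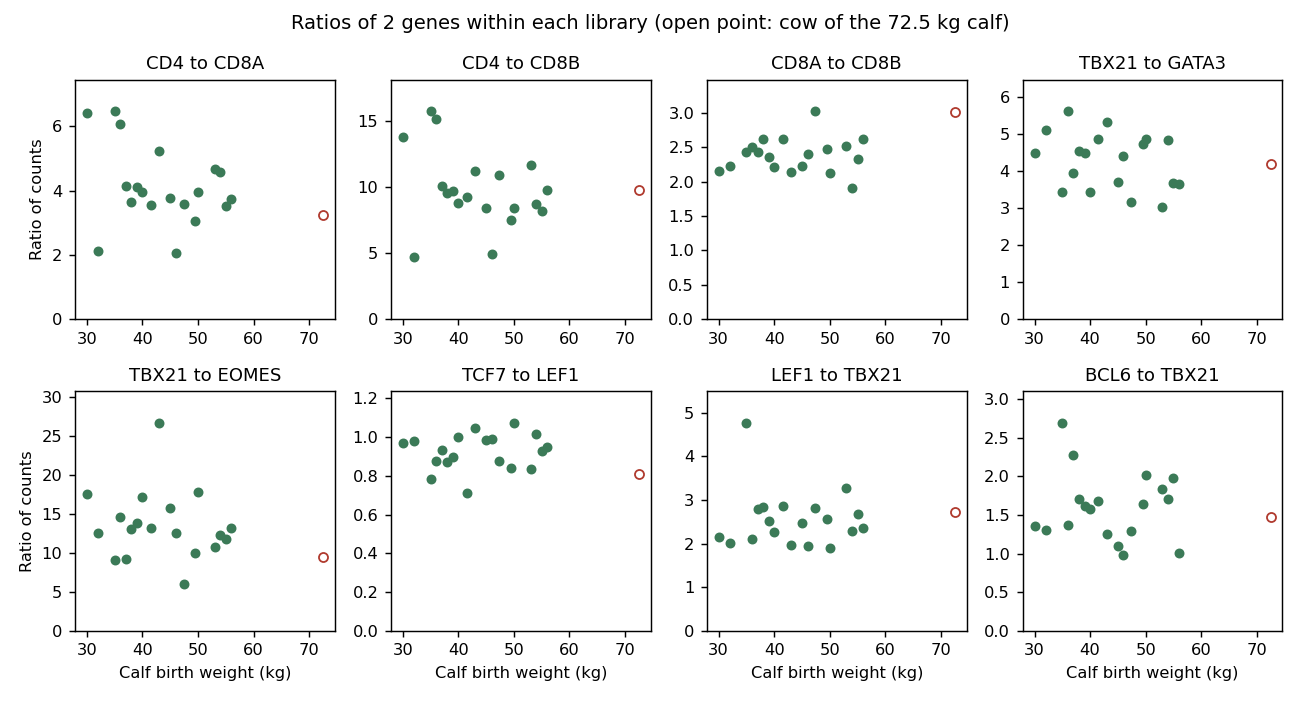
Ratio of the counts of 2 genes within each library (vertical axis from 0) against calf birth weight (kg), 1 point per cow for 20 cows; the open point is the cow of the 72.5 kg calf. The *CD4* to *CD8A* ratio runs from 2.05 to 6.48 with light calves at both ends, and the *CD8A* to *CD8B* ratio stays between 1.91 and 3.03.

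The 9 genes were then compared with each other over the 20 cows on log2 CPM. Of the 36 pairs, 3 had an adjusted p below 0.05 by Pearson correlation. All levels come from the same 20 libraries and are shares of a total, so a cell type that takes up more of a library lowers the rest.

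The closest pair was *CD8A* and *CD8B*, at a Pearson correlation of 0.91 (permutation p = 1e-05, adjusted over 36 pairs 0.00036). With 100000 resamples no smaller p can be had. The Spearman correlation was 0.82 (permutation p = 2e-05, adjusted 0.00072). The Pearson value was 0.86 without the 2 cows farthest from the median *CD8A*, and with 1 cow left out it was between 0.88 and 0.93. *CD8A* and *EOMES* had a Pearson correlation of 0.64 (permutation p = 0.00327, adjusted 0.0392) and a Spearman correlation of 0.75 (permutation p = 0.00023, adjusted 0.00414), with 0.64 without the 2 farthest cows. The adjusted p of this pair was below 0.05 in 14 of the 20 sets without 1 cow and reached 0.156 without the cow of the 43 kg calf, where the correlation was 0.55. *TBX21*, the other T-box gene, had a correlation with *CD8A* of 0.22 (permutation p = 0.353) and with *EOMES* of -0.080 (permutation p = 0.728), neither below 0.05 after adjustment.

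*CD4* and *TBX21* varied in opposite directions. Their Pearson correlation was -0.70 (permutation p = 0.00062, adjusted 0.0112) and their Spearman correlation -0.61 (permutation p = 0.00509, adjusted 0.0611), so the call was made by the first measure only. The relation rests in part on the cows at the ends, because the correlation was -0.45 (permutation p = 0.0626) without the 2 cows farthest from the median *CD4* and -0.57 (adjusted p of 0.114) without the cow of the 35 kg calf. *LEF1* and *TBX21* also ran in opposite directions, with a Pearson correlation of -0.60 (permutation p = 0.00694) that missed the threshold after adjustment (0.0625), a Spearman correlation of -0.53 (permutation p = 0.0183, adjusted 0.165), and a Pearson correlation of -0.27 without the 2 cows farthest from the median *TBX21*. *TCF7* and *LEF1* had a correlation of 0.29 (permutation p = 0.206, adjusted 0.571) by Pearson and 0.25 (permutation p = 0.283, adjusted 0.784) by Spearman.

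When each gene was replaced by its residuals after a regression on the T cell marker score, 5 pairs had an adjusted p below 0.05. This comparison was chosen after seeing the data. *CD8A* with *CD8B* (0.87) and *CD4* with *TBX21* (-0.78) were among them. *CD4* now had correlations of -0.63 with *CD8A* (adjusted p = 0.0211, permutation test) and -0.67 with *CD8B* (adjusted p = 0.0151, permutation test), where they had been -0.056 and -0.20 before. *TBX21* with *LEF1* was -0.63 (adjusted p = 0.0319, permutation test), while *CD8A* with *EOMES* fell to 0.32 (adjusted p = 0.39, permutation test). The residuals hold the T cell score fixed. *CD4* and the CD8 genes mark different parts of the T cells, so a fixed T cell score by itself favours negative correlations between them. No conclusion is drawn from their sign, and these values are given as a description.

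**Figure D4:**
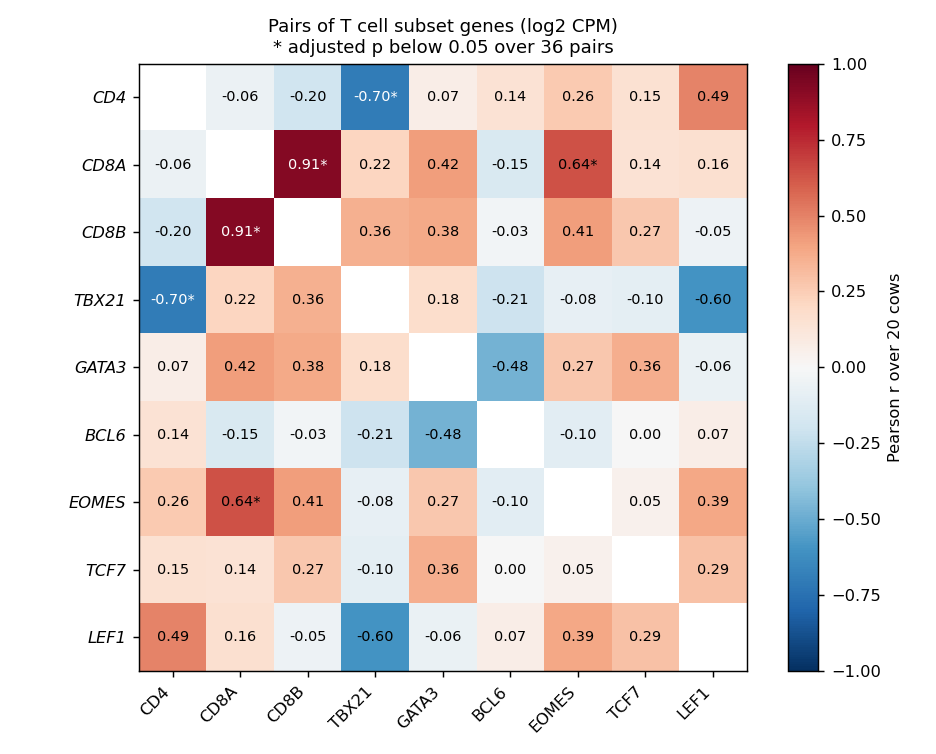
Pearson correlation of log2 CPM over 20 cows for each pair of genes, in colour from -1 (blue) to 1 (red) and as printed values, with an asterisk for an adjusted p below 0.05 over 36 pairs. The asterisks mark *CD8A* with *CD8B* (0.91), *CD8A* with *EOMES* (0.64) and *CD4* with *TBX21* (-0.70).

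Each gene was also set against marker scores of 5 blood cell types, the mean z-score of lists that hold none of the 9 genes. Of the 45 pairs, 9 had an adjusted p below 0.05, with 8 positive and 1 negative. *BCL6* was the gene called with the myeloid markers, though differences between genes were not tested and *CD4* had 0.44 with the monocyte score (permutation p = 0.0539, adjusted 0.162, Spearman 0.36 with permutation p = 0.12). Its Pearson correlation with the neutrophil score was 0.82 (permutation p = 1e-05, adjusted over 45 pairs 0.00045) and its Spearman correlation 0.74 (permutation p = 0.00033, adjusted 0.0051). With the monocyte score these were 0.76 (permutation p = 0.00017, adjusted 0.00382) and 0.77 (permutation p = 0.00017, adjusted 0.0051). The Pearson correlations were 0.71 and 0.62 without the 2 cows farthest from the median score, and both stayed below an adjusted p of 0.05 with any 1 cow left out. The correlation of *BCL6* with the T cell score was -0.34 (permutation p = 0.148, adjusted 0.291). The cow of the 56 kg calf, lowest in *BCL6*, had the lowest summed monocyte and neutrophil markers, and the cow of the 50 kg calf, highest in *BCL6*, was second highest in neutrophil markers. The neutrophil and monocyte scores had themselves a correlation of 0.72 over the cows. The part of monocytes and neutrophils in the *BCL6* level was not tested.

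The CD8 genes followed the T cell and the natural killer cell markers. *CD8A* had a Pearson correlation with the T cell score of 0.71 (permutation p = 0.00066, adjusted 0.0099) and a Spearman correlation of 0.68 (permutation p = 0.00118, adjusted 0.0133), with 0.67 without the 2 farthest cows. With the natural killer cell score it was 0.59 (permutation p = 0.00565, adjusted 0.0363) and 0.61 (permutation p = 0.00525, adjusted 0.0397), with 0.57 without the 2 farthest cows. *CD8B* had 0.66 with the natural killer cell score (permutation p = 0.00141, adjusted 0.0159, Spearman 0.74 with permutation p = 0.00034, adjusted 0.0051, and 0.66 without the 2 farthest cows) and 0.59 with the T cell score (permutation p = 0.0074, adjusted 0.0416, Spearman 0.55 with permutation p = 0.0131, adjusted 0.0774, and 0.66 without the 2 farthest cows). The call of *CD8B* with the T cell score was kept in 13 of the 20 sets without 1 cow, and its adjusted p was highest, at 0.169 with a correlation of 0.46, without the cow that carried the 32 kg calf. That of *CD8A* with the natural killer cell score was kept in 16 of 20, and its adjusted p was highest, at 0.119 with a correlation of 0.51, without the cow that carried the 30 kg calf.

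*GATA3* had a Pearson correlation with the T cell score of 0.63 (permutation p = 0.00219, adjusted 0.0196) and a Spearman correlation of 0.61 (permutation p = 0.0053, adjusted 0.0397), with 0.49 without the 2 farthest cows. *EOMES* had 0.65 with the same score (permutation p = 0.00261, adjusted 0.0196), but its Spearman correlation was 0.40 (permutation p = 0.0808, adjusted 0.208) and its Pearson correlation fell to 0.19 when the 2 farthest cows were left out, so that relation rests on those cows. The cow of the 47.4 kg calf, highest in both genes, also had the highest summed T cell markers, 1305 CPM, and without it the correlations were 0.52 for *GATA3* and 0.47 for *EOMES*, with adjusted p-values of 0.147 and 0.188. *CD4* was called with the B cell score only, and negatively, at -0.56 (permutation p = 0.00928, adjusted 0.0464), with a Spearman correlation of -0.55 (permutation p = 0.0138, adjusted 0.0774) and -0.53 without the 2 farthest cows. The adjusted p was 0.0548 with DESeq2 size factors in place of TMM. This call was kept in 8 of the 20 sets without 1 cow, and it was lost at -0.49 (adjusted p of 0.164) when the cow of the 47.4 kg calf was dropped. The T cell and B cell scores had a correlation of -0.70 over the cows. *CD4* with the T cell score gave 0.47 (permutation p = 0.0352, adjusted 0.122). *TBX21* had no call with any of the 5 scores, its correlation with the natural killer cell score being 0.16 (permutation p = 0.492, adjusted 0.658), and neither had *TCF7* or *LEF1*.

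None of the 5 scores was called for BW over 20 cows. The Pearson correlation was -0.11 for the T cell score (permutation p = 0.652, adjusted over 5 scores 0.815), with a Spearman correlation of -0.042 (permutation p = 0.861). It lay between -0.26 (monocytes) and 0.18 (natural killer cells) for the others.

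**Figure D5:**
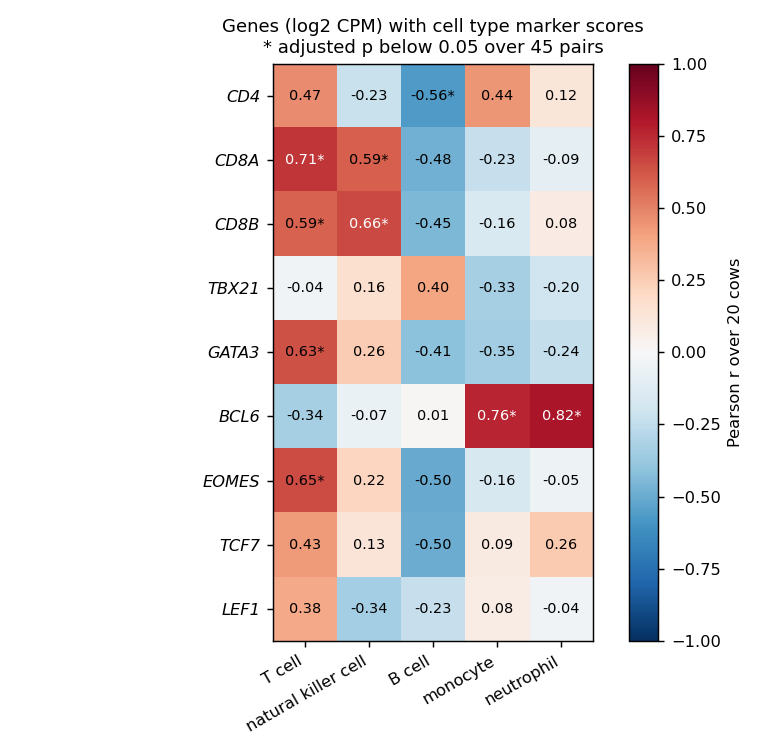
Pearson correlation over 20 cows between the log2 CPM of each gene (rows) and the marker score of each blood cell type (columns), in colour from -1 (blue) to 1 (red) and as printed values, with an asterisk for an adjusted p below 0.05 over 45 pairs. *BCL6* has its high values under monocyte (0.76) and neutrophil (0.82), *CD8A*, *GATA3* and *EOMES* have theirs under T cell (0.71, 0.63 and 0.65), and *CD8B* has its highest under natural killer cell (0.66).

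For each of the 9 genes, the genes with the most similar pattern over the 20 cows were identified among 16269 genes by the Pearson correlation of log2 CPM. They are given without a test, since they were the highest of many. *CD8A* was closest to *WC1-8* (0.93), then to *CD8B* (0.91) and *NUCB2* (0.88), and *CD8B* was closest to *CD8A*, then to *WC1-8* (0.91) and *CCL5* (0.82). *WC1-8* is a member of a multigene family whose reads may be shared, with a median of 4.81 CPM and a range from 0.887 to 19.9 CPM. The 4 tested genes of the gamma delta T cell list (*WC1*, *WC1.3*, *CD163L1* and *SOX13*) had negative slopes on BW (median -0.0064, log2 per kg), with none at an unadjusted p below 0.05. A negative slope was found for 53.4% of all genes, and also for all 8 B cell and all 7 monocyte markers.

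For *CD4* the closest genes were *LOC132343668* (0.81), *FOXP3* (0.77), the regulator of regulatory T cells, and *LOC132345799* (0.77). Both uncharacterised genes were low, with medians of 0.811 and 0.107 CPM. *LOC132343668* had at least 0.332 CPM in every cow, whereas *LOC132345799* was at 0 in its lowest cow and its values are sparse. *TBX21* was closest to *ZNF683* (0.89), *BATF* (0.85) and *TBKBP1* (0.84). Among the closest to *GATA3* were *ZAP70* (0.80), a kinase of the T cell receptor, and *L1CAM* (0.79). *EOMES* was closest to *LSM8* (0.86), *TRGC3* (0.83), a constant region of the T cell receptor gamma chain, and *RBBP7* (0.81).

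The closest genes to *BCL6* were *GAB2* (0.94), *IL1B* (0.92), an inflammatory cytokine of myeloid cells, and *LOC132344836* (0.91). *TCF7* was closest to *RAB14* (0.83), *SHB* (0.83) and *OXSM* (0.82), and *LEF1* to *LOC112441519* (0.79), *ABCB1* (0.78) and *PDK1* (0.77). *TCF7* and *LEF1* were not among the 3 closest genes of each other.

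Other genes of the subset programmes were counted in lists of lineage choice, T helper 1, T helper 2, T helper 17, follicular helper, regulatory, naive and memory, and cytotoxic effector genes. With edgeR 0 of the 71 genes tested in these 8 lists had an FDR below 0.05. At an unadjusted p below 0.05 there were 3 lower and 8 higher with heavier calves, where 7.08% of all genes were lower and 6.78% higher. DESeq2 called 2 of them, *NFIL3* and *AHR*, where it called 1.24% of all genes.

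In the lineage list, 3 of 9 genes had a negative slope and the median slope (log2 per kg) was 0.0031. *ZBTB7B*, which encodes ThPOK, the factor that commits thymocytes to the CD4 lineage, had a slope of 7.25% per 10 kg (edgeR p = 0.0442, FDR of 0.346), and its unadjusted p was below 0.05 in 8 of the 19 fits without 1 cow. *TOX* had -5.93% (edgeR p = 0.0893). Among T helper 1 genes (3 of 10 negative, median 0.0026), *IL18R1*, a chain of the interleukin-18 receptor, had 14.5% per 10 kg (edgeR p = 0.0116, FDR of 0.224). *IL18RAP*, the other chain of that receptor, went the other way, with -10.7% (edgeR p = 0.11, FDR of 0.489). *IFNG* itself, the cytokine of T helper 1 cells, was between 0 and 1.58 CPM.

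Among the 8 tested T helper 2 genes (1 negative, median 0.0069), *NFIL3*, a transcription factor of several leukocytes, ranged from 32.2 to 81.5 CPM with a slope of 23.8% per 10 kg (95% interval 10.8% to 38.2%, FDR of 0.111 with edgeR and 0.0177 with DESeq2). *PTGDR2* also had an unadjusted p below 0.05, and *CCR4*, at -4.23% (edgeR p = 0.33), had the only negative slope. *PTGDR2* is also a gene of eosinophils and basophils. *IL5RA*, the only one of the 6 listed eosinophil markers that could be tested, had a slope of 44.5% per 10 kg (edgeR p = 0.0102, FDR of 0.216), and its part in the T helper 2 values was not tested. *IL5* was listed at 0 in every cow and *IL13* was below the count minimum.

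Of the T helper 17 genes, 7 could be tested (3 negative, median 0.0023). *AHR*, a ligand-activated factor that many leukocytes express, ranged from 92.1 to 272 CPM with a slope of 28.5% per 10 kg (95% interval 13.2% to 45.8%, FDR of 0.109 with edgeR and 0.0133 with DESeq2), whereas *BATF* had -6.14% (edgeR p = 0.048, FDR of 0.355). The unadjusted p of *BATF* was below 0.05 in 6 of the 19 fits without 1 cow and reached 0.141 without the cow that carried the 32 kg calf. The unadjusted p of *NFIL3* and of *AHR* stayed below 0.05 in each of the 19 fits that left out 1 cow, with the highest at 0.00202 and 0.00607. *IL17A* and *IL17F* were listed at 0 in every cow and *IL22* was below the count minimum.

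In the follicular helper list 8 genes were tested (4 negative, median -0.0026). *BTLA*, an inhibitory receptor of B and T cells, had -11.5% per 10 kg (edgeR p = 0.0202, FDR of 0.264) and *ICOS* had 5.54% (edgeR p = 0.277), while *IL21* was listed at 0 in every cow and *CXCL13* was below the count minimum. Of 8 regulatory T cell genes (3 negative, median 0.0022), *IKZF2* had 8.24% (edgeR p = 0.0142, FDR of 0.242) and *FOXP3* had -5.41% (edgeR p = 0.305). Of 11 naive and memory genes (7 negative, median -0.00071), *BACH2*, a repressor that holds lymphocytes in a resting state, had -11.1% (edgeR p = 0.0124, FDR of 0.23) and *KLF2* had 3.52% (edgeR p = 0.283).

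Of the 10 tested cytotoxic effector genes (2 negative, median 0.0029), *GZMK*, a granzyme, had 45.8% per 10 kg (95% interval 13.6% to 87.2%, edgeR FDR of 0.188) at a level between 0.365 and 3.35 CPM. *ID2*, at a level between 34.4 and 81.5 CPM, had 15.7% (edgeR p = 0.0159, FDR of 0.248). *CCL5* had -9.70% (edgeR p = 0.338), and its slope turned from -0.015 to 0.015 per kg (log2) when the cow of the 32 kg calf was left out. This cow was also the highest in *CD8A* and *CD8B*. *GZMA* and *CX3CR1* were listed at 0 in every cow. For every gene listed at 0 in all 20 cows, whether the gene was silent or its reads were not assigned to its identifier was not tested, and no level is read from the zeros. Among the natural killer cell markers, *NCR1*, the receptor that defines these cells in cattle, had 17.6% per 10 kg (edgeR p = 0.0134, FDR of 0.235) and *CD244* had 8.88% (edgeR p = 0.0115, FDR of 0.224). The other markers of that list had values from -5.93% (*NCR3*, edgeR p = 0.073) to 13.6% (*KLRF1*, edgeR p = 0.657), and the score over the 7 markers was not called for BW.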

How the data were processed

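RNA of whole blood was sequenced in 1 library per cow for 20 cows, all in 1 group. Per the submitters' processing notes and methods, the authors used Trimmomatic for trimming, STAR 2.7.0b for alignment to the ARS-UCD1.3 cattle assembly and featureCounts of Subread 2.0.3 for counting. The deposited values are raw counts per gene by Entrez identifier, without normalization. The strand setting and the handling of reads that fit several genes are not given in the sources used here. The labels name a SMARTer Stranded kit and the paper a Truseq-stranded one. Symbols came from an NCBI table of the ARS-UCD2.0 assembly, in which all 37063 identifiers were found; no coordinates are given because the assemblies differ, and no sequences were used here. In that table *GATA3* and *LEF1* overlap 1 uncharacterised gene each, with 0 and 195 reads over all cows.

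Genes that reached 10 counts in 5 or more cows were tested for a slope on BW in kg with edgeR 4.0.16 (TMM, quasi-likelihood, R 4.3.3) in 19 cows, since the study left the cow of the 72.5 kg calf out of its test. DESeq2 1.42.0 and limma 3.58.1 with voom, other scalings, filters, cows and covariates were alternatives. Standard errors were derived from the F statistic. Log2 CPM used a prior count of 2, and ratios added 0.5 to each count. Correlations used two-sided permutation tests with 100000 resamples. Adjustment followed Benjamini and Hochberg. The steps were tested on simulated data. The slopes on BW simulated there were far larger than those of the 9 genes, so power at slopes like theirs was not tested. No 2 libraries were repeats, with a chi-square per degree of freedom of at least 12.2 over 190 pairs. The 9 genes and the lists were chosen with earlier results of these data known. Besides the 9 genes, those named are the 3 closest in pattern to each, the smallest p in each direction of every list, list genes that were not tested and the T cell markers. Some genes that this rule names are not reported here. *IFNG*, *IL18RAP*, *PTGDR2*, *IL5RA*, *ID2*, *NCR1*, *CD244*, *NCR3*, *KLRF1* and the gamma delta T cell markers were named after their values were seen. Correlations were run in scipy 1.17.1 under Python 3.11.15.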

Additional observations from a re-analysis of the deposited data

How the results depend on the processing

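The count of the 9 genes called for BW was 0 under each of the 30 alternatives run, and so was the count at an unadjusted p below 0.05. The slope of *CD8B*, near 0, turned positive with limma-voom (0.0028 per kg), with the rank of BW (0.00016 per rank), with the T cell score as covariate (0.0056) and with library size as covariate (0.0022). With 1 cow left out the slopes ranged from -0.0075 to 0.018 for *CD8A*, from -0.0079 to 0.018 for *CD8B* and from -0.0088 to 0.0015 for *BCL6*. The other slopes kept their sign, several of them close to 0. None of the 8 ratios was called under any alternative. The correlation with BW turned for *TCF7* to *LEF1* (0.12) and *LEF1* to *TBX21* (-0.032) in the 19 cows, and for *CD8A* to *CD8B* (-0.070), *TCF7* to *LEF1* (0.19) and *LEF1* to *TBX21* (-0.11) without the 2 cows farthest in BW. With 1 cow left out it ranged from -0.18 to 0.12 for *TCF7* to *LEF1*, from -0.041 to 0.29 for *LEF1* to *TBX21* and from -0.16 to 0.019 for *BCL6* to *TBX21*. The cause was not tested. With DESeq2 size factors 3 pairs of genes were again called, 8 in place of 9 pairs with marker scores were called (*CD4* with the B cell score was lost), and *BCL6* with *TCF7*, near 0, became 0.021. After removing the T cell score 5 pairs were called in place of 3, and correlations changed sign for *CD4* with *GATA3* (-0.34), *EOMES* (-0.068) and *TCF7* (-0.066), for *CD8A* with *GATA3* (-0.059), *BCL6* (0.13), *TCF7* (-0.26) and *LEF1* (-0.17), for *CD8B* with *BCL6* (0.22), for *EOMES* with *GATA3* (-0.25), *BCL6* (0.16) and *TCF7* (-0.34), and for *BCL6* with *TCF7* (0.17). This alternative and leaving out 1 cow for the called correlations were chosen after seeing the data. Over all genes, the count with an FDR below 0.05 was 0 with edgeR and became 189 with DESeq2, 147 without the filter on low counts, 4 with all 20 cows and 34 without the cow of the 32 kg calf. Depth limits *EOMES* most, at 209 reads in its lowest cow.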
